A study of Mus musculus with 10 samples.

Results

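The genes described are those of the 2 classical families of proteins that choose splice sites, the SR splicing factors and the heterogeneous nuclear ribonucleoproteins (hnRNPs). They were taken as all protein-coding genes whose symbol starts with Srsf and a digit or with Hnrnp, which gave 12 SR and 20 hnRNP genes, 32 of the 55359 genes in the expression table. RNA had been sequenced from lineage-negative (Lin-) bone marrow cells, which are obtained by depleting cells that carry markers of mature blood lineages. There were 5 libraries from Dhx9f/f mice, in which Dhx9 is flanked by loxP sites but intact (WT), and 5 from Dhx9f/f;MX1 mice (cKO). The cKO mice also carry Cre recombinase under the interferon-responsive Mx1 promoter, which poly(I:C) switches on in blood cells and in other interferon-responsive cells, so the Dhx9f/f allele is common to both groups and Cre is not. Whether the WT mice that were sequenced had received poly(I:C) is not stated, so its effect and that of the genotype cannot be told apart. The ages of these mice are not given in the sources used here. Nothing in the labels names a mouse for each library, so p-values measure the spread between these libraries.

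SR proteins hold RNA recognition motifs and a tail rich in arginine and serine, and by binding enhancer sequences in exons they help the spliceosome define the exon. hnRNPs coat nascent transcripts and often oppose SR proteins at the same splice sites, so the balance between both families sets how an exon is used. Many SR genes limit their own output through poison exons, whose inclusion sends the transcript to nonsense-mediated decay (NMD). In blood, SRSF2 is a recurrent target of mutation in myelodysplastic syndrome, hnRNP K is lost with deletions in myeloid leukaemia, and hnRNP LL sets the splicing of CD45 in lymphocytes. DHX9 itself, also called RNA helicase A, unwinds RNA and takes part in transcription and RNA processing.

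The targeted gene went against the labels. In WT, libraries 1 to 5 held Dhx9 (chromosome 1) at 68.96, 72.42, 72.18, 69.55 and 65.43 FPKM, and those labelled cKO held it at 130.82, 148.8, 131.25, 156.49 and 131.98 FPKM, which is 1.0 higher on the log2 scale (adjusted p = 1.39e-05). FPKM are fragments scaled to the length of the gene and to the fragments of the library, and the value of a whole gene does not show which exons were covered. Groups are therefore named by their labels, and each direction below rests on them. WT libraries 3 to 5 also held Xist at 99.19 to 127.76 FPKM, whereas WT libraries 1 and 2 and all libraries labelled cKO were at 0.03 to 0.09 FPKM. Ddx3y, on the Y chromosome, was at 0 to 0.05 FPKM in WT libraries 3 to 5 and at 19.66 to 38.53 FPKM in the others. The labels give no sex, but by these genes WT libraries 3 to 5 read as female and the others as male. Sex is thus partly confounded with the group. Values within the libraries low in Xist, 2 WT and 5 labelled cKO, are given beside the results or, for the hnRNP genes and Srsf7, in a paragraph after the members. Depth read from the values was 13790000 to 18720000 fragments per library. Hnrnpa0, an hnRNP gene with 1 annotated transcript, had 5610 to 8265 fragments in each library.

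The families were highly expressed and differed little between the groups. Of the 32 genes, 30 passed the filter of an average of 0.1 FPKM or more, and all 30 had a mean above 10 FPKM. Srsf12 stayed at 0 to 0.13 FPKM. Srsf19 was listed at 0 in every library, where 3 fragments would have given 0.0606 to 0.0823 FPKM, a limit that covers counting error only. Among the 30 genes tested, 9 (30%) passed an adjusted p of 0.05 in limma, 6 higher and 3 lower in the libraries labelled cKO. In the same fit 45.0% of all 18742 genes tested passed, as did 55.4% of the 5512 genes that averaged 10 FPKM or more. When those 5512 genes were fitted alone, 57.6% passed. None of the 30 also reached the 2-fold change of the study's rule, although 8 were higher and 3 lower at an unadjusted p under 0.05. That rule was met by 21.4% of all genes and by 534 of the 5512 averaging 10 FPKM or more. The 95% confidence interval of the fold change lay within 2-fold either way for 30 of 30 members, against 47.5% of all genes and 82.8% of those averaging 10 FPKM or more. The median absolute log2 fold change was 0.12 for the 30 genes, 0.48 for all genes tested and 0.3 for those averaging 10 FPKM or more.

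**Figure D1:**
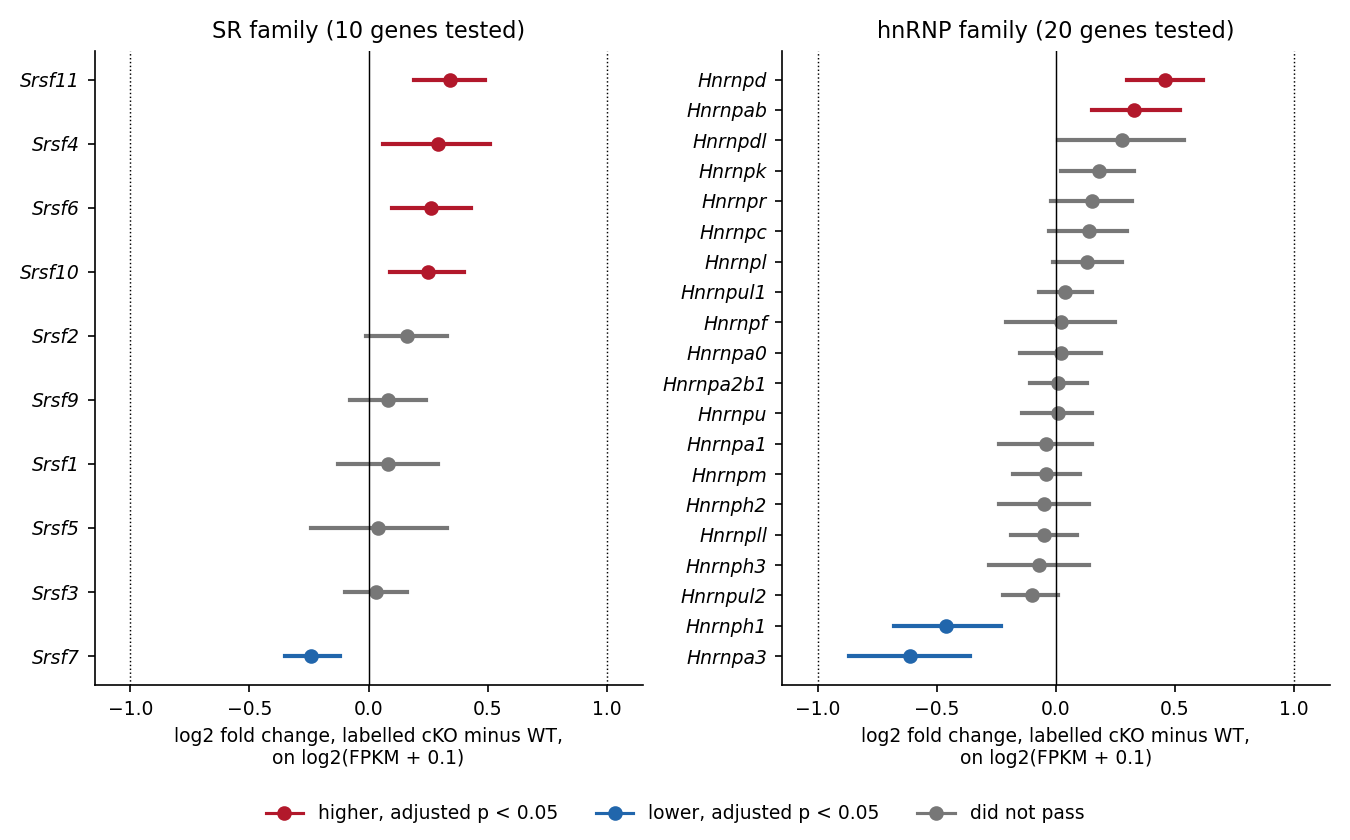
Log2 fold change on log2(FPKM + 0.1), libraries labelled cKO minus WT (5 each), for each tested SR gene (left) and hnRNP gene (right). Points are limma estimates, bars 95% confidence intervals, dotted lines a 2-fold change; colour marks an adjusted p under 0.05. SR values run from -0.24 to 0.34 and hnRNP values from -0.61 to 0.46, and no bar reaches a 2-fold change.

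Of 10 SR genes tested, 4 were higher and 1 lower (50.0%), with a median log2 fold change of 0.12 and 9 values above 0. Of 20 hnRNP genes, 2 were higher and 2 lower (20%), with a median of 0.01 and 12 values above 0. The share that passed among SR genes lay between that of all genes and that of well expressed genes, and the share among hnRNPs was below both. None of these shares was tested against another, the SR share against the hnRNP share included. All genes tested had a median log2 fold change of -0.11, with 16.7% higher and 28.3% lower, and genes averaging 10 FPKM or more had a median of 0.08. The SR median exceeded the hnRNP median by 0.11, and by 0.07 to 0.17 in 22 other settings of the fit. The scale mattered for the sign against other genes. Quantile normalization moved the median of all genes from -0.11 to 0.10, and with it the SR median went from 0.23 above that of all genes to -0.07 against it, and the hnRNP median from 0.12 above to -0.14. Counts also moved with scaling: median-ratio scaling gave 5 SR genes higher and 0 lower and 8 hnRNP genes higher and 2 lower, and quantile normalization gave 2 and 1 for SR and 3 and 3 for hnRNP, so that the same share of both families passed under either scaling. The shares of all genes called under these scalings are not given here, so the counts cannot be set against them. Within the libraries low in Xist 1 of 10 SR genes and 4 of 20 hnRNP genes passed, against 25.4% of all genes. The hnRNP count of 2 higher was 6 without WT library 3 and 4 without cKO library 5.

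Summed over the family, SR transcripts were at 1028 ± 58.2 FPKM in WT and 1100 ± 19.6 FPKM under the cKO label (SD, n = 5 each). hnRNP transcripts summed to 2242 ± 115 FPKM in WT and 2340 ± 51.8 FPKM under the cKO label. The groups overlapped in both sums, from 956.2 to 1102.1 against 1078.6 to 1129.9 FPKM for SR and from 2125.3 to 2427.4 against 2270.5 to 2413.8 FPKM for hnRNP. Single members were also steady among libraries of a group: the median coefficient of variation was 7.58% (WT) and 8.16% (labelled cKO) for SR genes and 7.96% and 7.37% for hnRNP genes. The most variable tested member was Hnrnpa3 among the libraries labelled cKO, at 18.8%, and the steadiest was Hnrnpul1 in WT, at 2.55%.

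**Figure D2:**
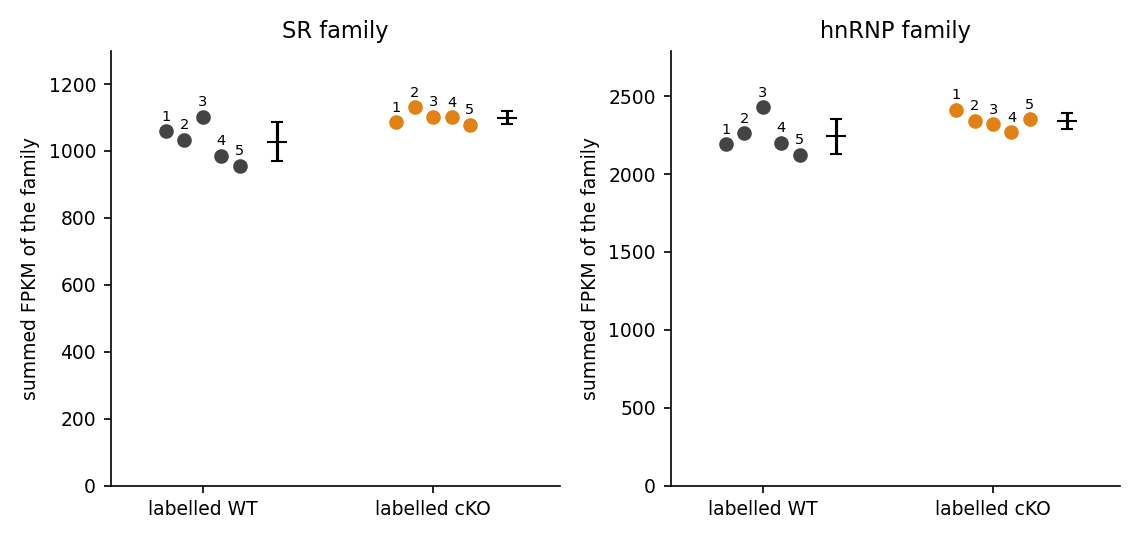
Summed FPKM of the SR genes (left) and hnRNP genes (right) in each of the 5 WT libraries and 5 libraries labelled cKO, numbered by replicate; dashes and bars are the mean ± SD. In both families the groups overlap, and the WT libraries span the wider range (2125.3 to 2427.4 FPKM for hnRNP).

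Short stretches upstream of the start sites are shown for the members that passed the test and carry an ETS-type or E-box motif in the 250 bases before the start. Members that rose and members that fell shared these letters, and also CCAAT, for which no stretch is shown. Start sites and bases are from RefSeq (GRCm38.p6), and positions were found by exact match in GRCm39; capitals mark the motif, and each stretch is written in the direction of its gene. The first 4 hold CCGGAAG or its complement CTTCCGG, the core that ETS factors bind, and the last 2 hold CACGTG, the E-box that factors such as MYC and USF bind.
Srsf11, chr3:157742330-157742359, minus strand: caaaagctcacaCCGGAAGccccgaccacg
Srsf4, chr4:131600726-131600755, plus strand: cccgcgcaggcaCTTCCGGgggaagtgccg
Srsf7, chr17:80514935-80514964, minus strand: agcaggagaccgCCGGAAGgccacaggttt
Hnrnpd, chr5:100126958-100126987, minus strand: ttgcgcacgccaCTTCCGGtcctctttaaa
Hnrnpa3, chr2:75489573-75489602, plus strand: cggatagcacatCACGTGgtgactggcccc
Hnrnpd, chr5:100126812-100126841, minus strand: gcgctccggagcCACGTGaccgggacgcgc

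Promoters were found for 29 of the 32 genes, 11 SR and 18 hnRNP. On either strand, CCGGAAG was present in 36.4% of SR promoters (Srsf4, Srsf5, Srsf7 and Srsf11), in 11.1% of hnRNP promoters (Hnrnpd and Hnrnpf) and in 7.07% of all 27025 promoters. Of these genes Srsf11, Srsf4 and Hnrnpd were higher and Srsf7 was lower in the libraries labelled cKO. CACGTG was present in 0 of 11 SR promoters, in 11.1% of hnRNP promoters and in 6.04% of all promoters, and its 2 carriers moved in opposite directions, Hnrnpd higher and Hnrnpa3 lower. CCAAT, the box bound by NF-Y, was in 66.7% of hnRNP, 27.3% of SR and 34.5% of all promoters. Its carriers that passed were Srsf10 and Hnrnpab, which were higher, and Hnrnpa3 and Hnrnph1, which were lower. The SR promoters had a median GC content of 68.0% and the hnRNP promoters of 60.6%, against 52.0% for all. The other motifs searched were TATAAA, in 18.2% of SR, 5.56% of hnRNP and 13.0% of all promoters, and the GATA-type motif AGATAA, in 0 of 11 SR, 11.1% of hnRNP and 10.2% of all promoters. None of these searched words contains another. A match describes letters and not a bound site, and both Hnrnpd stretches lie inside the gene as annotated by GENCODE.

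Among SR genes, Srsf11 had the largest rise. SRSF11 binds near the 3′ splice site and promotes the inclusion of short exons in neurons. Srsf11 (ENSMUSG00000055436, chromosome 3) was at 40.3, 39.1, 39.49, 36.81 and 37.37 FPKM in WT and at 54.17, 46.29, 46.37, 53.1 and 45.21 FPKM under the cKO label. The groups did not overlap, and libraries 1 and 4 of the cKO label were highest. Non-overlap held for 8 of the 30 members (26.7%), 32.2% of all genes tested and 39.1% of those averaging 10 FPKM or more. The rise of 26.6% was a log2 fold change of 0.34 (standard error, SE, of 0.0662, adjusted p = 0.00181), and 0.30 (adjusted p = 0.0630) within the libraries low in Xist.

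Srsf4 and Srsf6 encode the closely related SR proteins with long arginine and serine tails. Srsf6 (chromosome 2) was at 114.69, 109.9, 116.29, 105.69 and 103.39 FPKM in WT and at 126.0, 136.81, 123.19, 154.45 and 121.84 FPKM under the cKO label, a rise of 20% (log2 fold change 0.26, SE 0.0736, adjusted p = 0.0132). Every library labelled cKO was above every WT library, but within the libraries low in Xist the value of 0.23 did not pass (adjusted p = 0.155). Srsf4 (chromosome 4) was at 18.34, 17.46, 17.8, 16.24 and 15.27 FPKM in WT and at 26.76, 19.57, 19.09, 20.31 and 18.91 FPKM under the cKO label, with library 1 far above the others. Its log2 fold change was 0.29 (SE 0.102, adjusted p = 0.0392) with no overlap, and 0.20 (adjusted p = 0.0303) without library 1 of the cKO label. The call of Srsf4 was the least stable, passing in 12 of 22 other settings, and it was lost when WT library 2, 4 or 5 or cKO library 2 or 4 was left out (adjusted p up to 0.327 over all settings, with a log2 fold change of 0.21, within the libraries low in Xist).

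Srsf10 also passed. SRSF10 is the SR protein that turns into a general splicing repressor when dephosphorylated after heat shock. Srsf10 (chromosome 4) was at 50.03, 58.33, 50.62, 47.2 and 48.36 FPKM in WT and at 66.17, 58.58, 58.78, 62.42 and 56.03 FPKM under the cKO label. The groups overlapped through WT library 2 and cKO library 5, and the log2 fold change was 0.25 (SE 0.0707, adjusted p = 0.0147), or 0.16 (adjusted p = 0.272) within the libraries low in Xist.

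Srsf7 was the SR gene that fell. SRSF7 carries a zinc knuckle beside its RNA recognition motif and also acts in mRNA export. Srsf7 (chromosome 17) was at 121.33, 129.63, 120.2, 119.52 and 121.12 FPKM in WT and at 96.82, 106.33, 109.63, 99.71 and 106.38 FPKM under the cKO label. All libraries labelled cKO were below all WT libraries, levels fell by 15.2%, and the log2 fold change was -0.24 (SE 0.0524, adjusted p = 0.00368).

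The SR genes with the highest levels did not pass. Srsf2 was at 215.21, 220.6, 245.02, 204.62 and 188.24 FPKM in WT and at 218.35, 255.34, 249.4, 230.67 and 242.81 FPKM under the cKO label (log2 fold change 0.16, adjusted p = 0.114). Of its annotated exon bases, 57.9% overlap Mettl23 and 50.4% overlap Mfsd11 on the opposite strand, and the strand setting of the counting is not stated, so fragments of these genes cannot be told apart. Srsf5 was at 228.4, 149.31, 195.23, 170.99 and 166.08 FPKM in WT and at 235.12, 192.85, 169.06, 172.47 and 167.14 FPKM under the cKO label (log2 fold change 0.04, adjusted p = 0.802). It was highest in library 1 of both groups, which overlapped over most of their range. Srsf1, the founding member, was at 169 ± 11.8 and 180 ± 22.8 FPKM (SD, n = 5 each), with library 1 of the cKO label at 139.42 FPKM and the other 4 at 184.88 to 193.85 FPKM. Its log2 fold change was 0.08 (adjusted p = 0.533) with all libraries and 0.17 (adjusted p = 0.0397) without that library. Srsf3, the smallest SR protein, and Srsf9 had log2 fold changes of 0.03 and 0.08 (adjusted p = 0.724 and 0.396), and 46.3% of the exon bases of Srsf9 overlap Gatc on the opposite strand.

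In the A/B and D group of hnRNPs, whose proteins carry a pair of RNA recognition motifs and a glycine-rich tail, members moved in both directions. Hnrnpd encodes a protein that binds AU-rich elements and controls mRNA decay. Hnrnpd (ENSMUSG00000000568, chromosome 5) was at 59.31, 55.62, 65.47, 60.29 and 49.47 FPKM in WT and at 80.11, 82.75, 78.01, 77.32 and 78.87 FPKM under the cKO label. The libraries labelled cKO lay close together and above all WT libraries, a rise of 37.3% (log2 fold change 0.46, SE 0.0719, adjusted p = 5.31e-04). Hnrnpab (chromosome 11), a relative of Hnrnpd and the most abundant member, was at 310.48, 371.32, 417.88, 344.48 and 318.83 FPKM in WT and at 418.47, 463.53, 450.13, 429.7 and 445.65 FPKM under the cKO label. The highest WT library and the lowest labelled cKO were almost level, and the log2 fold change was 0.33 (SE 0.0837, adjusted p = 0.00777). Phykpl overlaps 35.5% of the exon bases of Hnrnpab on the opposite strand, at 3.91 FPKM in WT and 5.64 FPKM under the cKO label. The neighbour of Hnrnpd in sequence and on chromosome 5, Hnrnpdl, was at 92.25, 72.54, 99.39, 86.1 and 72.17 FPKM in WT and at 118.36, 110.78, 93.97, 106.24 and 82.41 FPKM under the cKO label. The groups overlapped, and its log2 fold change of 0.28 did not pass (adjusted p = 0.0820).

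Hnrnpa3 had the largest change of any member, and it was lower. It encodes a protein closely related to hnRNP A1 and A2/B1. Hnrnpa3 (ENSMUSG00000059005, chromosome 2) was at 34.9, 31.03, 30.82, 28.97 and 27.25 FPKM in WT and at 26.9, 18.64, 17.96, 18.42 and 18.82 FPKM under the cKO label. Library 1 of the cKO label came within reach of the lowest WT library and the other 4 were far below, so that levels fell by 34.6% (log2 fold change -0.61, SE 0.115, adjusted p = 0.00149). Without library 1 of the cKO label the log2 fold change was -0.72 (adjusted p = 8.27e-05). The more abundant Hnrnpa2b1, Hnrnpa1 and Hnrnpa0 did not pass: Hnrnpa2b1 was at 329.69, 326.78, 349.52, 337.42 and 341.85 FPKM in WT and at 340.36, 324.19, 320.84, 353.72 and 355.64 FPKM under the cKO label (log2 fold change 0.01, 95% confidence interval -0.11 to 0.13, adjusted p = 0.926). Hnrnpa1, which represses many exons, and Hnrnpa0 had log2 fold changes of -0.04 and 0.02 (adjusted p = 0.729 and 0.867). Processed copies of these genes could share fragments with them; the named copies Hnrnpa1l2-ps and Hnrnpa1l2-ps2 were at 0 to 0.13 FPKM.

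**Figure D3:**
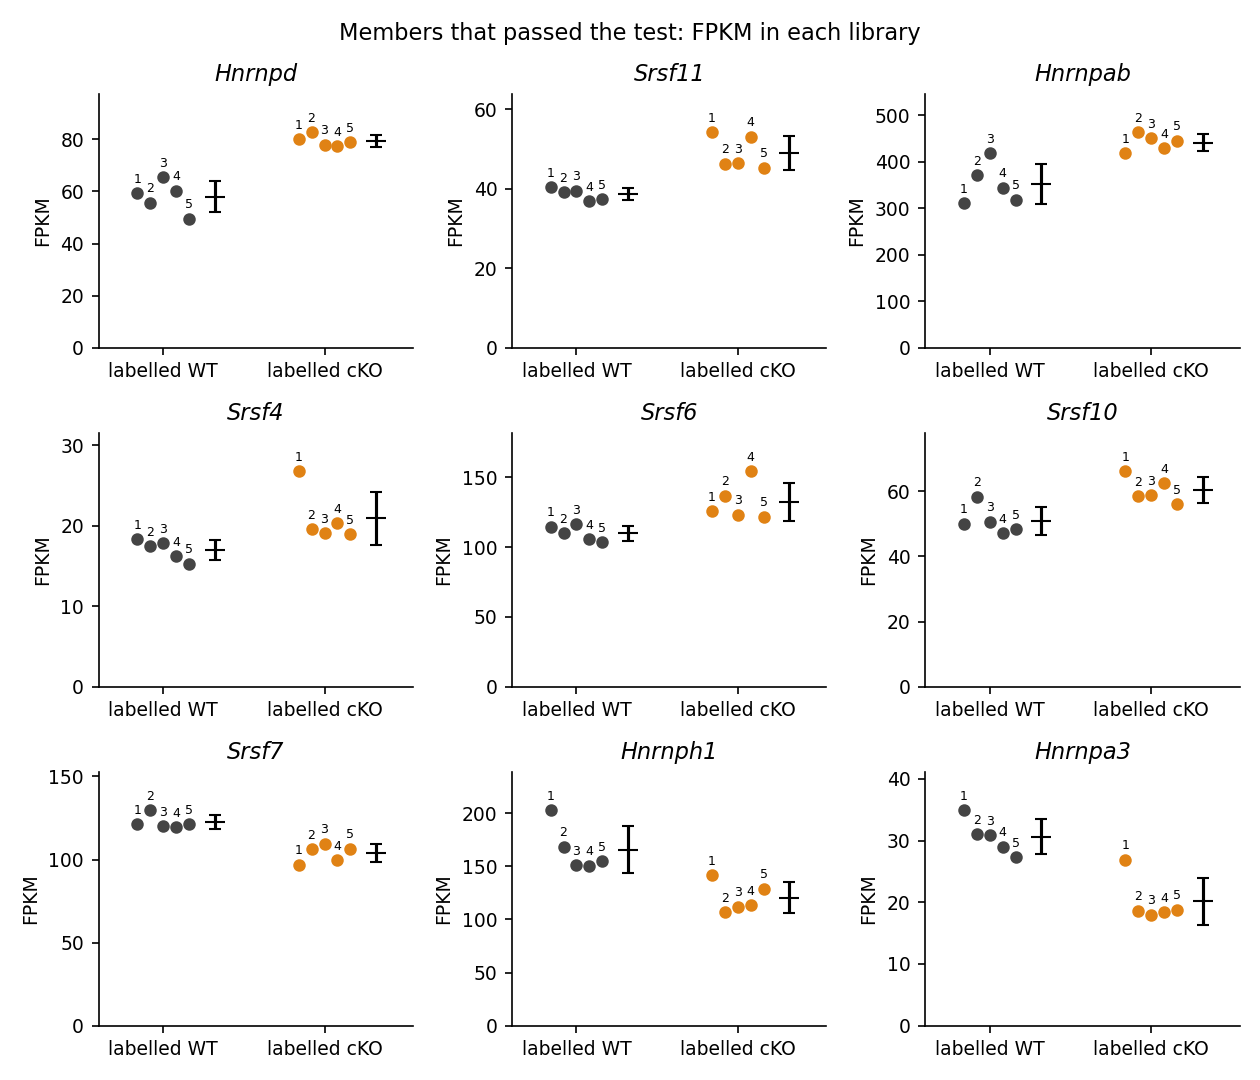
FPKM in each library for the 9 members that passed the test, ordered by log2 fold change from Hnrnpd to Hnrnpa3; dark points are WT and orange points labelled cKO, numbered by replicate, with the mean ± SD (n = 5 each) beside them. The groups are apart in 8 of the 9 panels and overlap for Srsf10; library 1 of the cKO label stands high for Srsf4 (26.76 FPKM) and Hnrnpa3 (26.9 FPKM).

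In the F and H group, which binds runs of G, Hnrnph1 fell and its relatives did not pass. Hnrnph1 (ENSMUSG00000007850, chromosome 11) was at 202.81, 168.32, 150.95, 150.69 and 154.77 FPKM in WT and at 141.46, 106.84, 111.98, 113.27 and 128.85 FPKM under the cKO label. No library labelled cKO reached a WT library, and levels fell by 27.1% (log2 fold change -0.46, SE 0.103, adjusted p = 0.00430). Hnrnph3 was at 24.54, 20.99, 23.73, 20.54 and 24.27 FPKM in WT and at 25.82, 18.72, 19.69, 22.34 and 22.49 FPKM under the cKO label, so the groups overlapped (log2 fold change -0.07, adjusted p = 0.585). Hnrnpf, of the same group, was at 191 ± 21.0 and 194 ± 24.7 FPKM (log2 fold change 0.02, adjusted p = 0.901). Hnrnph2, the X-linked copy, was at 43.7 ± 1.50 and 42.5 ± 6.13 FPKM (SD, n = 5 each; log2 fold change -0.05, adjusted p = 0.672). Without library 1 of the cKO label, where Hnrnph2 was at 53.15 FPKM, its log2 fold change was -0.13 (adjusted p = 0.0466).

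None of the remaining hnRNP genes passed. Hnrnpk, whose KH domains bind C-rich RNA, came nearest, at 101.95, 99.68, 112.51, 105.01 and 98.79 FPKM in WT and at 134.74, 116.97, 107.32, 119.93 and 107.7 FPKM under the cKO label (log2 fold change 0.18, adjusted p = 0.0664). Only WT library 3 rose above the lowest libraries labelled cKO. Hnrnpul2 was at 87.85, 90.33, 87.25, 88.12 and 93.86 FPKM in WT and at 86.81, 79.4, 78.13, 85.44 and 87.52 FPKM under the cKO label, where only library 5 overlapped WT (log2 fold change -0.10, adjusted p = 0.137). Hnrnpc, which binds runs of U, Hnrnpl, which binds CA repeats, and Hnrnpr had log2 fold changes of 0.14, 0.13 and 0.15 (adjusted p = 0.166, 0.118 and 0.146). Hnrnpll, Hnrnpm, Hnrnpu and Hnrnpul1 lay between -0.05 and 0.04. Hnrnpu, whose scaffold protein tethers Xist RNA to chromatin, was at 138.68 and 146.27 FPKM in the WT libraries low in Xist and at 153.93, 138.9 and 140.19 FPKM in those with Xist, which overlap. Hnrnpr was the least abundant tested member by FPKM, at 12.6 ± 1.06 in WT and 13.9 ± 0.919 in the libraries labelled cKO.

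Within the libraries low in Xist (2 WT and 5 labelled cKO), where 25.4% of 18588 genes passed (8.82% higher and 16.5% lower), the 4 hnRNP calls held and the SR calls that were higher did not. The log2 fold changes there were 0.47 for Hnrnpd (adjusted p = 0.00814), 0.38 for Hnrnpab (adjusted p = 0.0305), -0.72 for Hnrnpa3 (adjusted p = 0.0216) and -0.62 for Hnrnph1 (adjusted p = 0.0169). Srsf7 also passed, at -0.27 (adjusted p = 0.0433). Srsf11, Srsf6, Srsf4 and Srsf10 kept their direction, with 3 fewer libraries in the fit. With Xist as a covariate over all libraries, Srsf11 alone of the SR genes was higher (adjusted p = 0.0307).

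Over all 22 other settings, Hnrnpd, Hnrnpab, Hnrnpa3 and Hnrnph1 passed in 22 in the same direction. Srsf11 and Srsf7 passed in 21 each, Srsf7 failing with median-ratio scaling (log2 fold change -0.13, adjusted p = 0.0546). Srsf6 and Srsf10 passed in 19 each and failed with quantile normalization and in both fits that took Xist into account.

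**Figure D4:**
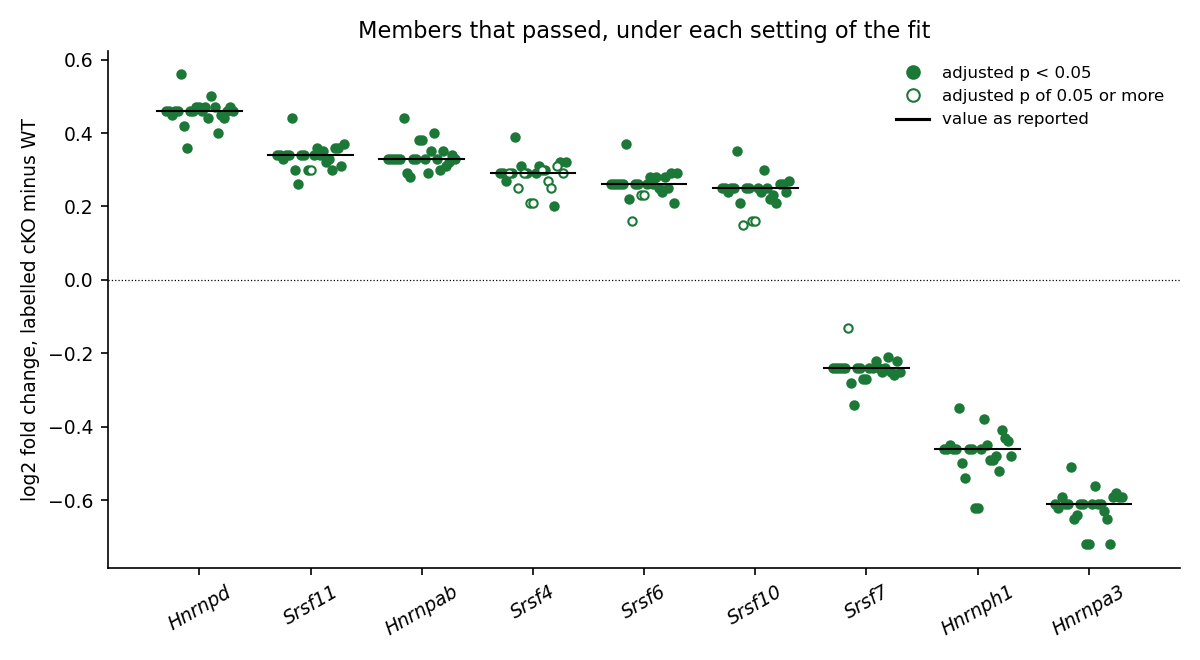
Log2 fold change, libraries labelled cKO minus WT, of the 9 members that passed, as reported (black line) and in each setting of the fit (points; filled where the adjusted p is under 0.05, open otherwise). No member changes direction, the 4 hnRNP genes are filled throughout, and Srsf4 has the most open points, passing in 12 of 22 other settings.

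Phosphorylation of the arginine and serine tail by SRPK kinases sends SR proteins into the nucleus with the importin TNPO3, and CLK kinases then release them from nuclear speckles. Of 9 tested genes for SR kinases and import, 4 were lower and 0 higher at adjusted p (44.4%, against 45.0% of all genes tested and 28.3% that were lower), and 5 were lower and 0 higher at an unadjusted p under 0.05, with a median log2 fold change of -0.19 against -0.11 for all genes. Srpk2 was at 5.67, 4.75, 4.31, 5.33 and 5.82 FPKM in WT and at 2.5, 1.96, 3.02, 1.82 and 3.11 FPKM under the cKO label, with no overlap (log2 fold change -1.05, SE 0.170, adjusted p = 6.10e-04). Clk4 was at 26.09, 22.07, 19.01, 23.35 and 22.09 FPKM in WT and at 15.66, 14.81, 13.82, 14.21 and 16.38 FPKM under the cKO label, again with no overlap (log2 fold change -0.58, adjusted p = 4.25e-04). The other falls were Clk1 (log2 fold change -0.57, adjusted p = 0.00662) and Clk3 (-0.39, adjusted p = 0.0282), the latter lost without WT library 1 or 2 or cKO library 2, 3 or 5, with median-ratio scaling (adjusted p = 0.0863) or quantile normalization (adjusted p = 0.167) and within the libraries low in Xist (adjusted p = 0.0987). These kinases were singled out after their values were seen, apart from Srpk2. Tnpo3 had the highest log2 fold change of the list and did not pass, at 12.9 ± 0.368 and 13.5 ± 0.291 FPKM (SD, n = 5 each; log2 fold change 0.06, adjusted p = 0.429). Within the libraries low in Xist 3 of 10 genes were lower, Srpk2 (-1.07, adjusted p = 0.0250), Clk1 (-0.68, adjusted p = 0.0301) and Clk4 (-0.68, adjusted p = 0.00910). Over the other settings 2 to 5 genes of the list were lower, and 1 was higher with median-ratio scaling or quantile normalization.

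Among 21 SR-related and SR-like splicing activators, which include the TRA2 proteins, the U2AF subunits and the speckle scaffolds SON and SRRM2, 6 were higher and 3 lower (42.9%, against 45.0% of all genes tested), with a median log2 fold change of 0.07. These counts moved with the setting: 0 were higher and 2 lower within the libraries low in Xist (3 and 4 at an unadjusted p under 0.05, median -0.0011), 1 and 2 with Xist as a covariate, 8 and 2 with median-ratio scaling, 4 and 5 with an equal sum and 2 and 5 with quantile normalization. Bclaf1, an arginine and serine-rich protein of the mRNP, had the largest rise, from 33.0 ± 1.48 to 44.8 ± 5.61 FPKM (log2 fold change 0.43, adjusted p = 0.00205), but did not pass within the libraries low in Xist (0.40, adjusted p = 0.0579). Rsrp1, which encodes a small arginine and serine-rich protein, had the largest fall. It was at 246.51, 164.06, 169.33, 184.1 and 196.98 FPKM in WT and at 116.29, 91.97, 109.4, 93.69 and 130.7 FPKM under the cKO label, below WT throughout (log2 fold change -0.82, SE 0.128, adjusted p = 5.14e-04, and -0.90, adjusted p = 0.0167, within the libraries low in Xist).

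The hnRNP proteins named otherwise, such as the PTB and PCBP proteins, gave 1 higher and 0 lower of 12 tested (8.33%, against 45.0% of all genes), with a median log2 fold change of 0.01 as in the Hnrnp genes. The 1 gene was Raly, named after its value was seen, at 81.3 ± 4.79 and 90.7 ± 4.63 FPKM (log2 fold change 0.16, adjusted p = 0.0486). Raly passed without WT library 3 or cKO library 3 and did not pass without any other library, nor within the libraries low in Xist (0.21, adjusted p = 0.110), where 0 of 12 genes passed and 1 was higher at an unadjusted p under 0.05. The extremes of the list did not pass with all libraries: Pcbp4 was at 0.640 ± 0.115 and 1.42 ± 0.660 FPKM (log2 fold change 0.88, adjusted p = 0.0884) and Ptbp3 at 83.7 ± 9.04 and 70.6 ± 13.2 FPKM (log2 fold change -0.26, adjusted p = 0.101). Without library 1 of the cKO label both passed, Pcbp4 at 1.26 (adjusted p = 7.54e-04) and Ptbp3 at -0.36 (adjusted p = 0.00422). Both also passed with quantile normalization (adjusted p = 0.0232 and 0.0392), and Ptbp3 with the replicate block (adjusted p = 0.0119). Within the libraries low in Xist neither did (adjusted p = 0.270 and 0.217). Ralyl was listed at 0 in every library.

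Of 16 other regulators of splice site choice, 3 were higher and 3 lower (37.5%, against 45.0% of all genes), with a median of 0.06, and 1 was higher and 3 lower within the libraries low in Xist. Rbm17, which encodes a spliceosomal factor for 3′ splice sites, rose from 53.6 ± 4.88 to 74.3 ± 8.61 FPKM (log2 fold change 0.47, adjusted p = 0.00208, and 0.53, adjusted p = 0.0285, within the libraries low in Xist). Celf2, which encodes a regulator that binds GU-rich RNA, fell from 9.66 ± 1.42 to 2.99 ± 0.720 FPKM (log2 fold change -1.68, adjusted p = 7.11e-05, and -1.76, adjusted p = 0.00714, within the libraries low in Xist).

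**Figure D5:**
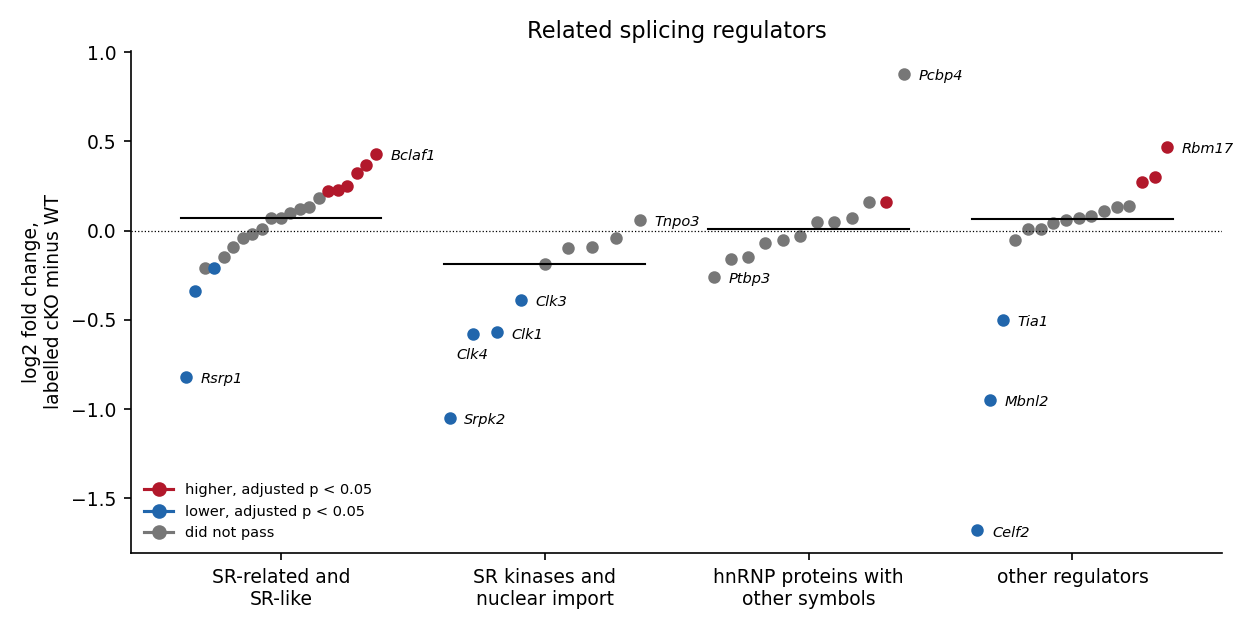
Log2 fold change, libraries labelled cKO minus WT, of each tested gene in 4 lists of related splicing regulators; points are genes, the black line is the list's median, and colour marks an adjusted p under 0.05. Srpk2 (-1.05) and the CLK kinases lie below 0 while the list of hnRNP proteins with other symbols has a median of 0.01 and 1 gene that passed.

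The libraries differed in their marker genes at the same time, and in bulk RNA fewer cells of a type and less RNA per cell cannot be told apart. Counts of markers are at adjusted p, where 16.7% of all genes tested were higher and 28.3% lower. Of 17 erythroid markers tested, 16 were higher, with sums of 1803.8 to 3204.7 FPKM in WT and 5125.2 to 8518.8 FPKM under the cKO label. Of 14 monocyte and dendritic cell markers 12 were lower, with sums of 878.8 to 1513.2 against 47.0 to 292.6 FPKM, and Itgax was at 0 in some libraries labelled cKO. Neutrophil markers were lower for 5 of 12, with sums of 2744.7 to 3733.8 FPKM in WT, 2645.9 FPKM in library 1 of the cKO label and 149.4 to 1134.9 FPKM in the other 4. Of these markers 4 had a log2 fold change above 0, and 0 were higher at adjusted p. In library 1 of the cKO label S100a9 was at 894.75 and Ngp at 317.58 FPKM (WT means 71.6 and 10.3 FPKM). Elane, at 183.65 FPKM, and Mpo, at 277.33 FPKM, were there below the WT means of 826 and 1162 FPKM. Megakaryocyte and platelet markers were lower for 8 of 8 (283.2 to 1286.3 against 86.2 to 187.8 FPKM), mast cell and basophil markers for 7 of 7 (692.3 to 1374.8 against 91.3 to 589.2 FPKM), and stem and multipotent progenitor markers for 9 of 10 (74.5 to 100.8 against 23.2 to 42.6 FPKM), with Procr and Fgd5 at 0 in some libraries labelled cKO. Lymphoid and stromal lists were low in sum and also lower: 4 of 7 B-lymphoid markers (27.5 to 35.5 against 0.9 to 8.5 FPKM, with Igll1, Rag1 and Dntt at 0 in some libraries labelled cKO), 5 of 9 T and NK markers (83.7 to 112.7 against 8.4 to 33.1 FPKM, with Cd3d and Klrd1 at 0 in some) and 5 of 6 stromal and endothelial markers (19.9 to 27.2 against 1.0 to 5.8 FPKM, with Col1a1 and Cdh5 at 0 in some). The T-cell genes Cd3e, Cd3g, Cd3d and Trbc2 did not pass, with log2 fold changes of 0.53, 0.29, -0.62 and -0.63. Most of the T and NK sum was Nkg7, at 82.6 ± 9.54 FPKM in WT and 15.1 ± 8.63 FPKM under the cKO label. No marker was at 0 in a WT library, and the part of these cell types in the values of the SR and hnRNP genes was not tested.

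A value per gene sums transcripts that are productive and those that are not. In the GENCODE annotation of GRCm39, 11 of 12 SR genes (91.7%) had at least 1 transcript marked for NMD, with a median of 18.5 per gene, and 14 of 20 hnRNP genes (70.0%) did, with a median of 4.5. Tested protein-coding genes had such a transcript in 73.3% of cases (median 3 per gene), and those averaging 10 FPKM or more in 83.2% (median 5). Among members that passed, the number was 35 for Srsf7, 30 for Srsf10, 27 for Srsf4, 20 for Hnrnpd, 16 for Srsf11, 6 for Hnrnph1, 5 for Srsf6, 1 for Hnrnpab and 0 for Hnrnpa3. Gene-level FPKM hold no measurement of which of these transcripts changed.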

How the data were processed

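RNA-seq libraries of Lin- bone marrow cells (5 WT, 5 labelled cKO) were compared. The authors deposited 1 FPKM value per gene and library. Their processing notes name cutadapt 1.9.1, HISAT2 2.0.1, HTSeq 0.6.1 and GRCm39; annotation, gene lengths and strand setting are not given in the sources used here. FPKM are not counts, so log2(FPKM + 0.1) was tested with limma 3.58.1 in R 4.3.3 (lmFit, then eBayes with trend), two-sided, over 18742 genes averaging 0.1 FPKM or more, with Benjamini-Hochberg adjustment. Log2 fold changes are on that scale, which understates changes of low genes. Genes passed at an adjusted p under 0.05; the study's rule adds a 2-fold change.

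Depth was read from low values of genes with 1 transcript, taken as whole within 0.2 of a fragment, and no libraries were alike within sampling noise (lowest chi-square per degree of freedom 4.07). Deviations of same-numbered libraries from their group means correlated at -0.01 to 0.12. For replicates 1 and 5 (0.12 and 0.09) this was above their correlations with other numbers, and for the rest below. Pairing by number was neither shown nor excluded. Promoters were taken at the most upstream RefSeq start of each gene. Overlaps used bedtools 2.31.1 and GENCODE annotation of GRCm39. The test was also run on data simulated from the WT means. Those data held no difference in sex or cell type between the groups, so the run does not cover such differences.

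Given in every library were, per family, the 4 largest rises and 4 largest falls among members averaging 1 FPKM or more, and the 2 highest means; of each related list, the largest rise and fall were named. Members, gene lists and rules were chosen with earlier results of these data known. Alternatives were pseudocounts of 0.01 and 1, the filter dropped or raised to 1 FPKM, 3 other scalings, no trend, a replicate block, Xist as a covariate, libraries low in Xist (under 1 FPKM) alone, each library left out, the 2-fold rule and, added after seeing the data, a filter at 10 FPKM. Listed markers Ahsp and Vpreb1 and the regulator Qk were not analysed here.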

Additional observations from a re-analysis of the deposited data

Results flagged for a closer look

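Within a group of 5 libraries, a value was singled out when its gap to the nearest other library exceeded 0.71 of the group's range (Dixon's test at 95%). This held in 8 of 62 groups examined, where chance would give about 3.10 if the groups were independent. All genes share the same 10 libraries, so they are not, and no excess over chance is read from this count. Library 1 of the cKO label was the distant library in 5 of them: it was highest for Hnrnpa3 (26.9 FPKM, next 18.82), Srsf4 (26.76 FPKM, next 20.31), Hnrnph2 (53.15 FPKM, next 42.06) and Hnrnpul1 (51.38 FPKM, next 47.3), and lowest for Srsf1 (139.42 FPKM, next 184.88). The same library held neutrophil markers at 2645.9 FPKM in sum, against at most 1134.9 FPKM in the other libraries labelled cKO. Its S100a9, at 894.75 FPKM, was above the WT mean and its Elane, at 183.65 FPKM, below it. The part of these markers in its SR and hnRNP values was not tested. The remaining values were Srsf3 in library 2 of the cKO label (81.05 FPKM, next 76.65), Hnrnpl in WT library 3 (88.07 FPKM, next 76.22) and Srsf7 in WT library 2 (129.63 FPKM, next 121.33). Without library 1 of the cKO label, 5 SR genes were higher and 1 lower, and 2 hnRNP genes were higher and 3 lower.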

How the results depend on the processing

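The cause of each shift below was not tested, and shares of all genes called under the other scalings are not given here. Median-ratio scaling gave 0 SR genes lower and 8 hnRNP genes higher, with medians of 0.22 and 0.12. Quantile normalization gave 2 SR genes higher and an SR median of 0.029. With Xist as a covariate 1 SR gene was higher, and in the libraries low in Xist alone 0 were by limma (1 at an unadjusted p under 0.05, as for SR genes lower with median-ratio scaling). The 2-fold rule left 0 calls in either family and direction. Leaving out each library in turn gave 3 to 5 SR genes higher and 1 lower, and 2 to 6 hnRNP genes higher and 2 to 3 lower. The hnRNP count was 6 without WT library 3 and 4 without cKO library 5. The medians ran from 0.09 to 0.18 for SR and from -0.0073 to 0.044 for hnRNP. Members that did not pass changed sign in some settings: Hnrnpul2 (0.0028) and Hnrnph3 (0.034) with median-ratio scaling, Srsf5 with quantile normalization (-0.042) and in leave-one-out fits (-0.040 to 0.13), and Hnrnpa2b1 with an equal sum (-0.034), quantile normalization (-0.017) and in leave-one-out fits (-0.010 to 0.027). Of 634 repeats for the named genes, 563 kept direction and side of the threshold, 42 lost a call, 18 gained one and 11 changed sign. Same-numbered libraries had correlated deviations of -0.01 to 0.12, highest for replicates 1 and 5, so pairing by number was neither shown nor excluded. The replicate block gave 4 SR genes higher and 1 lower and 2 hnRNP genes higher and 2 lower, as without it.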
